A study of Danio rerio with 6 samples.

Results

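The vehicle control pools were the 3 libraries labelled DMSO, replicates 1, 2 and 3, out of 6 libraries of whole zebrafish of strain AB. Each pool held 18 to 20 eleutheroembryos, the hatched stage that still lives on its yolk, sampled at 96 h post fertilization (hpf). The chorion had been taken off by hand at 24 hpf, and from then on the animals had stood in glass vials of 5 with the vehicle DMSO at 0.05% v/v, without a change of medium. The other 3 pools had the same age, strain and vehicle and in addition 4500 µg/L of PCB-11, which is 3,3'-dichlorobiphenyl. All 6 pools thus carried DMSO, and the control values are those of dechorionated, DMSO-kept animals. A pool averages its animals, so spread between animals cannot be read from these data. The labels do not say whether the pools came from separate clutches, so each p-value rests on a spread between pools that may be partly technical.

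At 96 hpf a zebrafish is a swimming larva. Its trunk is mostly fast muscle, in which calcium released from the sarcoplasmic reticulum drives actin and myosin filaments, and calcium pumps and parvalbumins end each contraction. The retina already has working cones, the exocrine pancreas makes digestive enzymes, and the liver and the yolk syncytial layer pack lipid into apolipoprotein particles. The data bear on how the messenger RNA of such an animal is divided among genes and tissues, and on which transcripts differ from one control pool to the next.

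Reads assigned to genes numbered 17811432, 18808853 and 19681843 in control replicates 1, 2 and 3. At least 1 read was counted for 13843, 13870 and 13909 genes out of 14791, and 692 genes were at 0 in all 3 control pools. Reads in the row no_feature, which names no gene, took 31.4%, 33.4% and 32.7% of all counts, and are not part of the shares below. A share is the percent of a pool's gene-assigned reads. A level is given in CPM (a share of 1% is 10000 CPM) scaled by the trimmed mean of M values (TMM), a factor per pool that absorbs differences in composition. Both grow with transcript length as well as with molecule number, and no lengths were used here, so a larger share means more reads and not always more molecules.

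A small set of genes took a large part of the reads. The 25 genes with the highest mean share held 17.1%, 16.3% and 16.8% of the reads in control replicates 1, 2 and 3, which is 16.7 ± 0.404% (SD, n = 3). The 100 highest genes of each pool held 30.0 ± 0.892%, and 401, 464 and 432 genes sufficed for 50% of the reads. Few genes stood high. In CPM without TMM scaling, 122 ± 6.51 genes were at 1000 or more, 1722 ± 44.7 at 100 or more and 12478 ± 61.0 at 1 or more. In the PCB-11 pools the same 25 genes held 14.4% to 18.6%, a range that encloses the control pools.

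Muscle genes led that set. Of the 25 highest genes, 11 were skeletal muscle genes, and together they took 9.16 ± 0.283% of the reads. The actin gene actc1b was first in every pool, at 21857, 19779 and 22733 CPM in replicates 1, 2 and 3, or 2.14 ± 0.124% of the reads. The parvalbumins pvalb2 and pvalb1, small proteins that soak up calcium, held 1.06 ± 0.0665% and 0.810 ± 0.0776%. The calcium pump gene atp2a1 held 0.872 ± 0.0406%. The contractile genes myhz1.1 (fast myosin heavy chain), mylpfa and mylz3 (myosin light chains), tpma (tropomyosin) and tnnt3b (troponin T) held between 0.397% and 0.934% each. The muscle creatine kinases ckmb and ckma, which buffer ATP, completed the set with 0.452 ± 0.0107% and 0.426 ± 0.0120%. Reads of actins, fast myosins and parvalbumins can pass between near-identical copies, so the split among members of one family is uncertain, while their sum depends less on it.

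The remaining 14 of the 25 came from several tissues and from functions that all cells share. The skin keratins krt4 and krt5 together held 1.39 ± 0.0940%, and krt4 alone stood at 9920, 9779 and 10864 CPM. The translation elongation factors eef1a1l1 and eef2b held 1.48 ± 0.0649%, and the chaperones hspa8 and hsp90ab1 1.05 ± 0.0131%. Collagen genes of bone and dermis (col1a1a, 0.518 ± 0.0477%) and of cartilage (col2a1a, 0.402 ± 0.0213%) were each present once, as were the cytoplasmic actin actb2 (0.703 ± 0.0110%) and the mitochondrial ADP/ATP carrier slc25a5 (0.511 ± 0.0184%). The apolipoprotein genes apoa1b, apobb.1 and apoa2, which coat exported lipid particles, held 0.445 ± 0.0616%, 0.358 ± 0.00910% and 0.362 ± 0.0334%. The ultraviolet cone opsin opn1sw1 was the single visual gene in the set, with 0.358 ± 0.0686%.

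**Figure D1:**
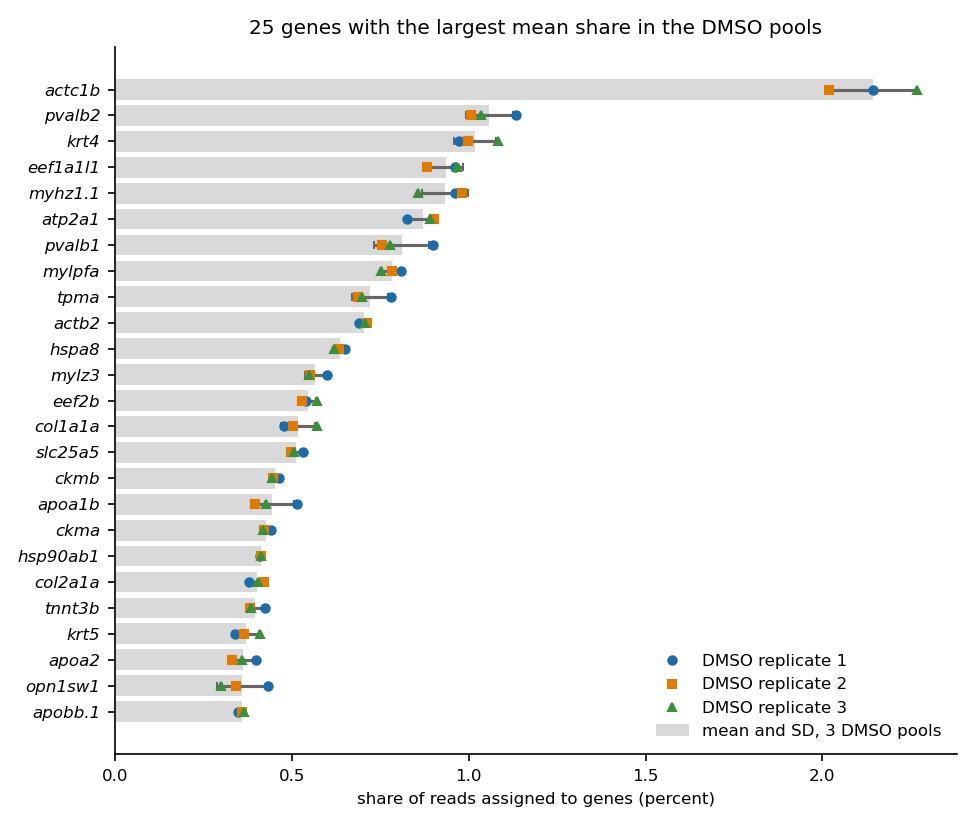
The 25 genes of highest mean share in the control pools, with the share of gene-assigned reads in percent on the horizontal axis. Grey bars and whiskers give the mean and SD over 3 DMSO pools and the points give each pool; actc1b stands apart at 2.14%, and opn1sw1 has the widest relative spread.

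These genes differed in how steady they were. The SD of log2 CPM over the control pools had a median of 0.10 among the 25 genes. It was smallest for actb2, at 7049, 6970 and 7093 CPM, where the highest pool was 1.02 times the lowest. It was largest for opn1sw1, at 4428, 3340 and 3009 CPM, with an SD of 0.29. Replicate 1 was the highest for this opsin and the other two pools lay close together. The same pool was highest for apoa1b, at 5245, 3866 and 4287 CPM.

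To place the remaining genes, 40 lists of tissue markers and cell functions with 1633 measured genes were summed. The 28 tissue and cell type lists held 31.3 ± 0.416% of the reads, the 12 lists of general functions 21.1 ± 0.524%, and genes in no list 47.6 ± 0.940%. The share of a list is that of its genes, not of the tissue, and in whole larvae fewer cells of a type and less RNA per cell cannot be told apart. Skeletal muscle was the largest list by far. Its 99 genes took 13.1%, 12.6% and 12.7%, a mean of 12.8 ± 0.258%, and actc1b, pvalb2 and myhz1.1 made up 32.4% of it. The heart list was small beside it, with 0.0663 ± 0.00315%, led by casq2 (calsequestrin, 173, 196 and 212 CPM), vmhc (ventricular myosin, 135, 141 and 129 CPM) and myl4. The cardiac light chain myl7, a defining marker chosen outside the naming rule, was even across pools at 28.4, 28.0 and 28.7 CPM.

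Outer and supporting tissues followed. The epidermis list held 3.16 ± 0.141%, in which krtt1c19e, a basal keratin, came after krt4 and krt5 with 2664, 2432 and 2622 CPM. Connective tissue collagens held 1.73 ± 0.114%, of which col1a1a, col1a1b and col1a2, the chains of type I collagen, made up 62.2%. Cartilage and bone held 1.48 ± 0.0936%, led by col2a1a, col11a1a and sparc, a matrix protein of mineralizing tissue. The notochord list held 0.107 ± 0.00713%. Ionocytes, the skin cells that take up ions from the water, held 0.231 ± 0.0159%, most of it from the sodium pump atp1a1a.1 and proton pump subunits that other cells also use.

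Organs of the gut and yolk took a share of similar size. The liver list held 2.11 ± 0.0835%, led by apoa2, the iron carrier tfa (2207, 1867 and 1971 CPM) and bhmt, an enzyme of methionine metabolism. The yolk syncytial layer list held 1.48 ± 0.0893%, with 70.4% of it from apoa1b, apobb.1 and apoa1a. The liver makes these apolipoproteins too, so the list does not separate it from the yolk layer. The exocrine pancreas held 1.25 ± 0.207%, with ctrb1 (chymotrypsinogen), prss59.2 (a serine protease) and zgc:92041 (cela1.6 in RefSeq, an elastase) first. The intestine list was smaller at 0.603 ± 0.0164%, led by the fatty acid binding protein gene fabp2 (699, 683 and 761 CPM) and the brush border gene vil1. Hormone genes of the islet were low in a whole larva: ins, a defining marker, stood at 17.8, 15.4 and 16.6 CPM. The endocrine pancreas list as a whole held 0.0609 ± 0.00139% and rested on the secretory granule genes scg2b, scg3 and chgb, which neurons also use.

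The eye was prominent. Photoreceptor genes held 1.65 ± 0.187% and lens genes 1.49 ± 0.128%, each close to the whole neuron list with its 133 genes (1.74 ± 0.0664%). After opn1sw1 came rho, the rod opsin, at 2766, 2150 and 2081 CPM, and arr3a, a cone arrestin, at 1225, 940 and 795 CPM. All of these were highest in replicate 1. The lens list was led by the beta crystallins crybb1 (1515, 1338 and 1727 CPM), crybb1l2 and cryba1b, structural proteins of lens fibres, and each was highest in replicate 3. Crystallin genes have near-identical copies, and single members are uncertain. The neuron list was spread over many genes: atp1a3a, the neuronal sodium pump, calm1a and stmn1b together made up 12.3% of it. Glia held 0.449 ± 0.0122%, led by the glutamate transporter slc1a2b and the glutamine synthetases glula and glulb; the myelin gene mbpb, a defining marker, stood at 156, 162 and 163 CPM.

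Blood, vessels and immune cells had small shares. The erythrocyte list held 0.169 ± 0.00291%, led by the embryonic globin hbae3 (349, 275 and 338 CPM), ca2 and hbae1. Both of these globins were lowest in replicate 2, but ca2, at 251, 313 and 300 CPM, was lowest in replicate 1. The small SD of the list is thus not that of each member. The globin symbols hbaa1 and hbbe3 had 0 to 3 reads per control pool; globin copies are near-identical, so reads of one may be missing from or counted under another. The endothelium list held 0.132 ± 0.00921%, and its first gene, the smooth muscle actin acta2, is no endothelial gene in the strict sense; kdrl, a receptor that defines endothelium, stood at 33.1, 37.1 and 31.1 CPM. The macrophage list held 0.108 ± 0.00481%, of which apoc1l, lgmn and ctsz, genes of wider expression, made up 79.0%. The neutrophil list held 0.0158 ± 0.00162%, with mpx (myeloperoxidase) at 15.8, 26.1 and 21.2 CPM, lowest in replicate 1. The lymphoid list held 0.0314 ± 0.000726%, of which tox, gata3 and rag1 made up 93.9%. It rested mainly on tox (55.8% of the list) and gata3, and was not read as a measure of lymphoid cells. The gene rag1, which rearranges antigen receptor genes in the thymus, was even at 172, 186 and 181 reads.

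Pigment cells, small glands and remnants of earlier stages also had small shares. Melanophore genes held 0.0365 ± 0.0111% and xanthophore and iridophore genes 0.112 ± 0.00610%, the latter led by paics, a purine synthesis gene that dividing cells also use, akr1b1 and pnp4b. The inner ear list held 0.0981 ± 0.00540%, led by stm (starmaker, an otolith protein). The pituitary list held 0.0125 ± 0.000321%, with growth hormone (gh1) at 20.0, 18.5 and 19.6 CPM. The hatching gland list held 0.0589 ± 0.00216%, but its first genes, xbp1 and cd63, serve secretion in many cells; he1a, the hatching enzyme itself and a defining marker, stood at 6.93, 9.06 and 5.35 CPM. The egg and oocyte list held 0.00140 ± 5.83e-05%, and ddx4, the germ cell helicase vasa, stood at 3.90, 3.07 and 4.48 CPM. Defining markers of heart (myl7), gut (fabp2), eye (rho) and brain (mbpb) given above were present, as a label of whole animals implies. So were myod1 of muscle (20.5, 26.9 and 18.0 CPM) and fabp10a of liver (233, 169 and 203 CPM). The globin hbbe1.1 stood at 114, 104 and 109 CPM and tp63 of skin at 50.6, 56.2 and 70.8 CPM. The blood markers hbaa1 and hbbe3 had 0 to 3 reads per control pool, and egg transcripts were near 0.

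**Figure D2:**
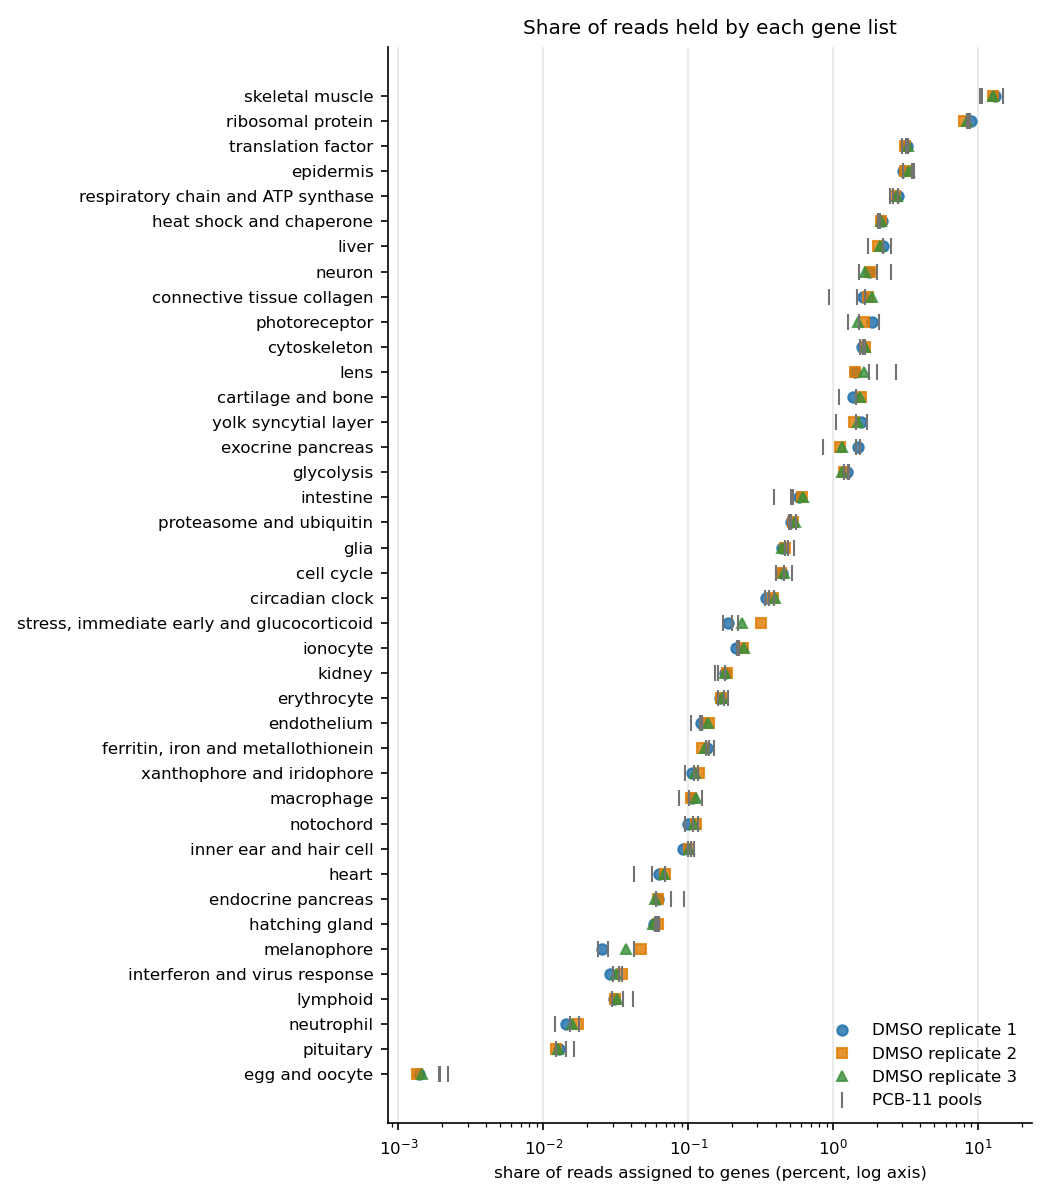
Share of gene-assigned reads held by each of 40 gene lists, in percent on a log axis, with coloured points for the 3 DMSO pools and grey ticks for the 3 PCB-11 pools. Skeletal muscle is first at 12.8% and the egg and oocyte list last at 0.00140%; control points mostly coincide, while melanophore and stress genes part.

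General functions took up another part of the reads. The 84 ribosomal protein genes held 8.90%, 7.94% and 8.34%, the second largest list with 8.39 ± 0.485%, and no single gene dominated it: rplp0, rps2 and rpl3 made up 10.7%. Translation factors held 3.22 ± 0.0792%, and the respiratory chain with ATP synthase 2.75 ± 0.0726%, led by slc25a5, atp5b and atp5a1. Chaperones held 2.15 ± 0.0194% and cytoskeleton genes 1.63 ± 0.0453%. Glycolysis held 1.19 ± 0.0455%, led by gapdh at 2318, 2054 and 1968 CPM. Proteasome and ubiquitin genes held 0.528 ± 0.0184%, cell cycle genes 0.446 ± 0.0125% and circadian clock genes 0.374 ± 0.0270%. Ferritin and metallothionein genes held 0.130 ± 0.00476%, interferon response genes 0.0317 ± 0.00303%, and stress, immediate early and glucocorticoid genes 0.247 ± 0.0654%, the widest relative spread among these general lists.

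Most genes differed little between control pools. Among the 10522 genes with a mean of at least 5 CPM, the highest pool was at the median 1.14 times the lowest, and the median SD of log2 CPM was 0.096, against 0.062 from counting error alone. The SD fell with level from 0.15 between 5 and 10 CPM to 0.071 between 100 and 300 CPM and was 0.10 at 1000 CPM or more, where counting error was 0.0083. The biological coefficient of variation, the spread left after counting error in edgeR, was 8.56% over the control pools and 7.15% without replicate 1. Among the steadiest genes of at least 100 CPM were rtn1b and gng3, both neuronal, zgc:112356 and ppp1r13bb. For rtn1b the level was 189 CPM in each control pool, closer together than counting error alone gives, and such a rank among many genes only describes these libraries.

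**Figure D3:**
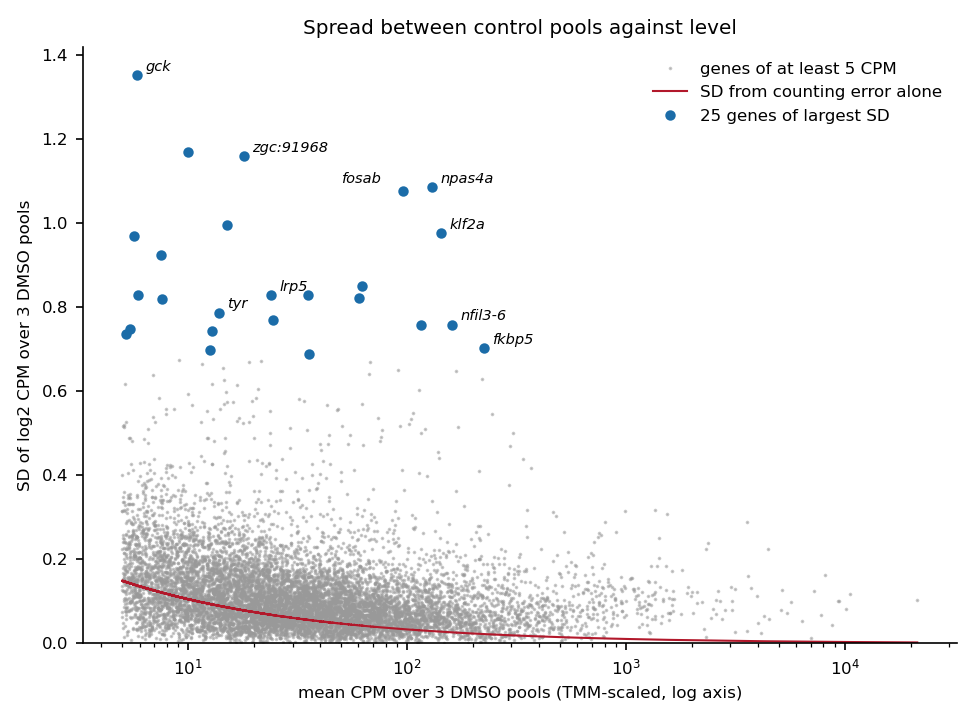
SD of log2 CPM over 3 DMSO pools against mean CPM (log axis), 1 point for each gene of at least 5 CPM. The red line is the SD from counting error alone; the blue points are the 25 genes of largest SD, from gck at 1.35 downwards, which lie far above it at low and middle levels.

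A difference of over 2-fold between the highest and the lowest control pool was found for 79 genes, 0.751% of those compared. None of them had a mean of 300 CPM or more. The count rested partly on replicate 1: it was 19 between replicates 2 and 3, against 46 without replicate 2 and 41 without replicate 3. Replicate 1 was the pool that stood apart, being farther from the middle pool than the other, for 42 of the 79 genes: it was low for 39 and high for 3. Among all genes of at least 5 CPM replicate 1 stood apart on the low side for 20.5% and on the high side for 19.4%, against 49.4% and 3.80% of the 79. Replicate 3 was low for 19 (24.1%) and high for 4 (5.06%), against 16.8% and 16.2% of all genes. Replicate 2 was high for 12 (15.2%) and low for 2 (2.53%), against 12.2% and 14.9% of all genes. Of the 79 genes, 34 belonged to a list: 10 to stress, immediate early and glucocorticoid genes, 7 to both pigment cell lists together, 3 each to clock and chaperone genes, and 2 or fewer to any other list.

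Melanophore genes and some xanthophore genes were low in replicate 1. The tyrosinase gene tyr, the first enzyme of melanin synthesis, stood at 6.99, 20.9 and 13.6 CPM in replicates 1, 2 and 3. The melanosome transport gene mlpha followed with 6.70, 16.4 and 14.9 CPM. Among the other melanophore genes, pmela (the melanosome fibre protein) stood at 67.7, 142 and 103 CPM and tyrp1b at 75.2, 146 and 125 CPM. The order of the pools was the same in all 4 genes, with replicate 1 lowest and replicate 2 highest. The melanophore list held 0.0252%, 0.0474% and 0.0370% of the reads, and replicate 1 was lowest for 7 of its 9 genes of at least 5 CPM. In the xanthophore and iridophore list 4 genes passed 2-fold, all with the same low pool. The xanthophore gene aox5 had 102, 387 and 373 reads, and gch2, the first enzyme of pteridine synthesis, stood at 19.3, 46.9 and 41.1 CPM. The transporter genes slc2a11b and slc2a15b stood at 7.39, 16.7 and 14.4 CPM and at 8.48, 16.1 and 17.1 CPM. The genes zgc:162150 (plin6 in RefSeq, a perilipin) and zgc:91968 (mreg in RefSeq, melanoregulin) ranked next to gck for spread. They stood at 3.21, 14.5 and 12.2 CPM and at 5.90, 25.4 and 22.8 CPM, so that the other pools lay near each other and over 3-fold above replicate 1. The iridophore gene pnp4a, a defining marker, differed less, with 54.4, 63.2 and 67.1 CPM. In the xanthophore and iridophore list replicate 1 was lowest for 10 of 18 genes, and pnp4b was highest in it, at 108, 89.4 and 98.3 CPM.

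Some genes known as targets of glucocorticoid or clock signals were also low in replicate 1, but highest in replicate 3. The transcription factor klf9 stood at 29.0, 66.5 and 91.2 CPM. The glucocorticoid receptor co-chaperone fkbp5 stood at 127, 211 and 336 CPM, and the repressor nfil3-6 at 82.2, 171 and 228 CPM. In each the 3 pools were well separated, at SDs of 0.85, 0.70 and 0.76 on the log2 scale, against 0.042, 0.022 and 0.026 from counting error. Genes named after their values were seen had the same order: nr1d2a, a clock repressor, stood at 128, 229 and 302 CPM, and pdk2b, a kinase that restrains pyruvate oxidation, at 39.8, 64.7 and 96.8 CPM. The circadian clock list as a whole varied less than these genes, with a median SD of 0.13 and 3 of 33 genes past 2-fold. Among all genes of at least 5 CPM the median SD was 0.096 and 0.751% passed 2-fold. The first gene of the clock list, bhlhe40, stood at 395, 416 and 448 CPM. In that list replicate 1 was lowest for 16 of 33 genes but highest for 14, among them tefa at 365, 335 and 326 CPM, so the low pool did not mark the list. The flow-responsive factor klf2a stood at 57.4, 180 and 192 CPM, and rgs2, a brake on G protein signals, at 3.15, 10.8 and 8.56 CPM. Replicate 1 was low for trpa1b, an irritant channel of sensory neurons, at 47, 144 and 146 reads, and for the transporter gene slc22a7a at 12.09, 32.7 and 28.2 CPM.

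Several immediate early genes, which cells switch on within minutes of a stimulus, were high in replicate 2. The neuronal activity factor npas4a stood at 91.3, 244 and 55.3 CPM and fosab at 56.8, 185 and 46.3 CPM. The gene zgc:175128, egr4 in RefSeq, stood at 46.4, 101 and 33.2 CPM, and btg2, an antiproliferative gene, at 75.6, 193 and 80.2 CPM. The cytokine signal inhibitor socs3a stood at 19.4, 59.6 and 27.3 CPM. In each of these 5 genes replicate 2 was at least 2-fold above both other pools, which were nearer to each other. Of the 33 genes of the stress, immediate early and glucocorticoid list with at least 5 CPM, replicate 2 was highest for 21 and replicate 1 lowest for 25, and 10 passed 2-fold. Of these 10, replicate 2 stood apart as high for 7. Replicate 1 stood apart as low for the other 3, klf9, pdk2b and nr4a1, the last at 37.6, 72.5 and 76.4 CPM. The list held 0.188%, 0.317% and 0.235% of the reads. Members that did not pass 2-fold included klf6a, at 139, 160 and 164 CPM.

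A further group was low in replicate 3. The phosphatidylinositol kinase gene pi4kab stood at 7.96, 6.82 and 2.24 CPM, the Wnt co-receptor lrp5 at 28.6, 32.0 and 11.2 CPM, and the sodium-calcium exchanger slc8a1b at 10.4, 8.96 and 3.57 CPM. The protocadherin pcdh2ac had 132, 103 and 53 reads, and faah, which breaks down endocannabinoids, had 116, 133 and 53 reads. Replicate 3 was lowest for each, and replicates 1 and 2 were within 1.5-fold of each other. Of the 79 genes, nova1 (a neuronal splicing factor), lama2 (a laminin of muscle basement membrane) and rpe65a (the retinoid isomerase) belonged to the same group. The labels give RNA integrity as a range over all pools, so a link of any group of genes with RNA quality was not tested.

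A pair of genes was low in replicate 2. The glucokinase gene gck, which phosphorylates glucose in the liver, had the largest SD among genes of at least 5 CPM, 1.35, at 6.47, 1.51 and 9.48 CPM. These levels rest on 113, 29 and 186 reads. The gene zgc:92590, listed with the exocrine pancreas, stood at 12.15, 6.87 and 19.4 CPM. The floor of 5 CPM for the spread left out mpeg1.1, a macrophage perforin, with a mean of 4.98 CPM: it had 2, 177 and 110 reads in replicates 1, 2 and 3, or 0.115, 9.22 and 5.604 CPM. Its neighbour below the floor, lgals3bpb, stood at 0.745, 8.28 and 5.40 CPM, while faah and pcdh2ac were just inside it with means of 5.42 and 5.21 CPM. The SDs of mpeg1.1 and lgals3bpb, 2.93 and 1.76, were above that of gck. Other leukocyte genes that passed 2-fold, coro1a (9.17, 20.0 and 16.0 CPM) and lcp1 (12.3, 25.7 and 18.7 CPM), had the same order of pools. Over the 11 macrophage list genes of at least 5 CPM, the median log2 deviation from the control mean had this order too. It was -0.12, 0.080 and 0.043 in replicates 1, 2 and 3. Not every member shared it: replicate 1 was lowest for 6 of the 11, replicate 2 for 3 and replicate 3 for 2. The leading genes of the list, apoc1l, lgmn and ctsz, were lowest in replicate 2. In the neutrophil list replicate 1 was lowest for 5 of 8 genes of at least 5 CPM and replicate 2 highest for 6. Its member lyz differed little, at 29.2, 31.2 and 30.8 CPM.

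**Figure D4:**
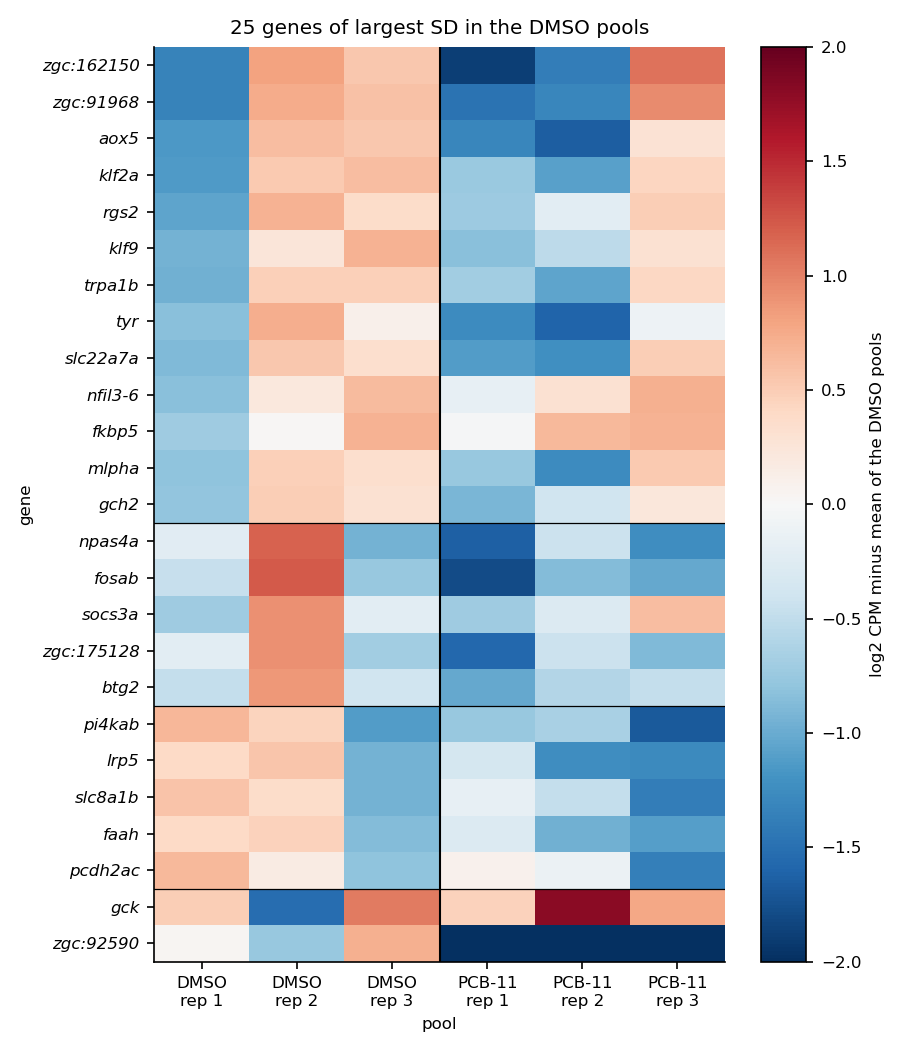
The 25 genes of largest SD over the DMSO pools, by pool, coloured by log2 CPM minus the gene's mean over the DMSO pools (colours saturate at -2 and 2). Horizontal lines part genes low in replicate 1, high in replicate 2, low in replicate 3 and low in replicate 2; the PCB-11 pools at the right were not used to choose them.

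Smaller shifts ran through whole lists. Counts of list genes highest or lowest in a pool are given throughout without the share of all genes. They therefore only describe the lists. In the exocrine pancreas list replicate 1 was highest for 23 of 27 genes of at least 5 CPM, and the list held 1.49%, 1.12% and 1.16% of the reads. Its first gene ctrb1 stood at 1945, 1340 and 1345 CPM. Ribosomal protein genes differed by less but together, with replicate 1 highest for 75 of 84 and replicate 2 lowest for 83, and the median deviation from the control mean was 0.11 in replicate 1 and -0.11 in replicate 2 on the log2 scale. For these lists the order of the pools was the same in plain shares and after TMM scaling. Photoreceptor genes held 1.85%, 1.64% and 1.47% of the reads in replicates 1, 2 and 3, and replicate 3 was lowest for 46 of 59. Replicate 3 was also lowest for 79 of 120 neuron genes, though the neuron list differed little, with a median SD of 0.091. Replicate 3 was highest for 36 of 51 lens genes and 35 of 60 epidermis genes. In the skeletal muscle list each pool was highest for 27 to 37 of 95 genes, and replicates 1, 2 and 3 were lowest for 35, 41 and 19; no member passed 2-fold.

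**Figure D5:**
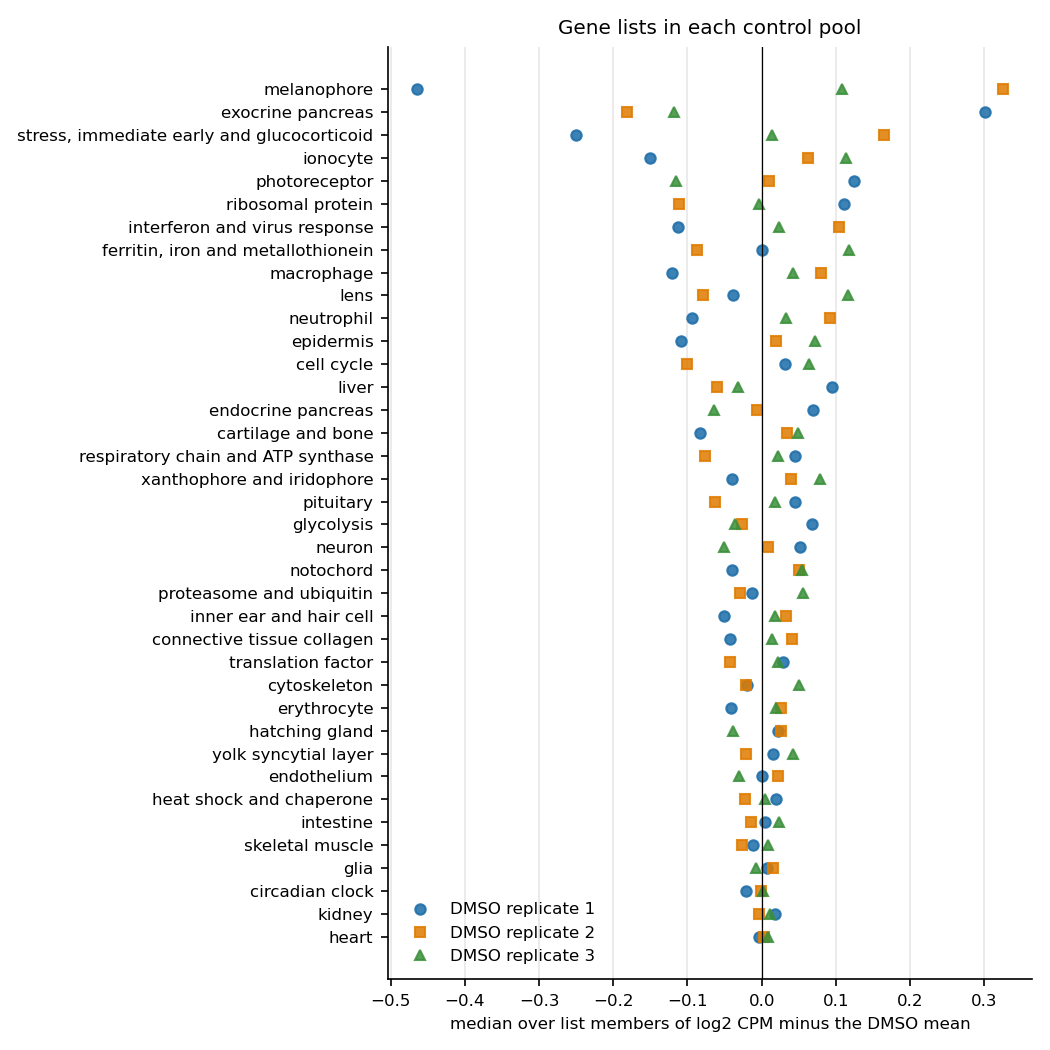
Median over list members of at least 5 CPM of log2 CPM minus the mean over the DMSO pools, 1 point per pool, for lists with at least 5 such members; the lists are ordered by the spread of the points. Melanophore genes range from -0.46 in replicate 1 to 0.32 in replicate 2, and heart and kidney genes lie near 0 in each pool.

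The PCB-11 pools gave a second view of the same genes. They differed more among themselves: 319 of 10514 genes, 3.03%, were over 2-fold apart, and the biological coefficient of variation was 16.6%. Of the 79 genes, 32 were over 2-fold apart in both groups, which is 40.5% of the control list and 10.03% of the PCB-11 list. Of the 39 genes low in control replicate 1, PCB-11 replicate 3 was the highest PCB-11 pool for 38, against 37.8% of all genes of at least 5 CPM. The lowest PCB-11 pool was replicate 1 for 25 of these 39 (64.1%) and replicate 2 for 14 (35.9%). Among all genes these shares were 26.5% and 36.5%. Of the 19 genes low in control replicate 3, PCB-11 replicate 3 was the lowest for 16, against 37.1% of all genes. The gene tyr, for example, stood at 5.22, 4.05 and 11.7 CPM and klf2a at 74.8, 58.9 and 169 CPM in PCB-11 replicates 1, 2 and 3. In both genes PCB-11 replicate 3 lay within the control range. PCB-11 replicate 2 was the lowest PCB-11 pool in both, as for 14 of the 39 genes.

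Between the groups, edgeR called 6 of 12960 tested genes at an adjusted p under 0.05, or 0.0463%, with PCB-11 compared against DMSO. That count went from 0 to 184 when 1 pool was left out, and was highest without PCB-11 replicate 3. By edgeR 11.8% of all tested genes had an unadjusted p under 0.05, and DESeq2 called 0.849%. None of the 25 highest genes was among the 6: 0 had an unadjusted p under 0.05, edgeR gave 0.426 as their smallest adjusted p, and DESeq2 also called 0. The 25 most variable genes were chosen on level and spread in the DMSO pools, and some reached a mean of 5 CPM only there. Their counts can therefore not be weighed against the share of all tested genes. None of these 25 was called by edgeR either, although 8 had an unadjusted p under 0.05, and DESeq2 called 1, zgc:92590. This gene stood at 2.17, 2.76 and 2.05 CPM in the PCB-11 pools, below every control pool. It is one of those that reached a mean of 5 CPM only in the DMSO pools (12.8 against 2.33 CPM). Such a choice favours a lower PCB-11 value. Its log2 difference was -2.47 ± 0.36 (SE), with an adjusted p of 0.0845 in edgeR. Of the 120 genes leading the lists edgeR called 0, 15 had an unadjusted p under 0.05, a share near that of all tested genes, and DESeq2 called the crystallin cryba1b (log2 difference 0.52 ± 0.15, SE, by edgeR) and vil1 (-0.71 ± 0.14). The groups did not overlap for 1 of the 25 highest and 23 of the 120 leading genes, against 19.4% of all tested genes, and for 2 of the 25 most variable. A p that misses the threshold does not show that the groups were alike.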

How the data were processed

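Poly(A) RNA of 6 pools was sequenced from directional libraries read at single ends, per the labels' protocols. The authors deposited 1 table of raw read counts per pool, with a whole number for each gene symbol. Build danRer7 and the tool Cufflinks appear in the submitters' processing notes, without a role. Which aligner, counter, strand setting and annotation were used is not given in the sources used here, so overlapping and antisense genes cannot be separated. The 2 rows that name no gene stayed out of all sums.

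Shares are percent of gene-assigned counts. Levels are CPM with TMM factors from all 6 pools (edgeR 4.0.16, R 4.3.3), and SDs of log2 CPM use a prior count of 2. Counting error is that of a Poisson count at the mean. No pair of control pools agreed within counting error, so none was treated as a repeat deposit of another; this does not show that the pools are independent. Groups were compared with edgeR's quasi-likelihood F test, two-sided, with group as the only term, Benjamini-Hochberg adjustment over all tested genes and a threshold of 0.05; DESeq2 1.42.0 was an alternative. The edgeR script was tested on simulated counts. The genes named are the 25 of highest mean share (CPM without TMM factors) and the 25 of largest SD among those of at least 5 CPM. Also named are the first 3 of each list and the 5 steadiest of at least 100 CPM. Some genes under this rule are not reported here. Defining markers and other genes were chosen with their values known. The rule, the members and the lists were all chosen with earlier results of these data known. List names were matched by symbol (1546 genes) or by RefSeq synonym of assembly GRCz12tu (87 genes), and 315 entries matched none.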

Additional observations from a re-analysis of the deposited data

How the results depend on the processing

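The share of the 25 highest genes was 11.2% with the 2 rows that name no gene kept in the total. It was 16.2% for the same genes in the PCB-11 pools, and 16.6% to 17.0% when 1 control pool was left out. The number of genes that hold 50% of the reads was 416.5 to 448 without 1 pool. The tissue lists held 21.0% with the 2 rows that name no gene in the total. They held 25.1% without the highest member of each list, and 31.1% to 31.5% without 1 pool. Genes over 2-fold between control pools numbered 248 from a mean of 1 CPM, 36 from 20 CPM, 79 with RLE factors, 87 with library size alone, and 19 (without replicate 1) to 46 (without replicate 2) with 2 pools. Of the 25 most variable genes, 25 were also among the 25 most variable with RLE factors and 24 with library size alone. The biological coefficient of variation was 7.15% (without replicate 1) to 9.82% (without replicate 2), and 8.56% to 8.83% under other scalings or no filter.

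Genes called between the groups numbered 6, and 110 with DESeq2, 26 with the replicate number as a block, and 0 to 184 when 1 pool was left out, with 184 without PCB-11 replicate 3, 7 without PCB-11 replicate 2, 1 without DMSO replicate 2 and 0 without any other pool. The labels do not say that replicate numbers mark a shared clutch or day. Deviations of same-numbered pools correlated over genes at 0.256, -0.147 and 0.367 for numbers 1, 2 and 3. Pools numbered 1 and 3 correlated best with their own number, and those numbered 2 did not. Deviations within a group sum to 0, so these correlations depend on each other and do not decide whether the numbers mark pairs. As the labels state no pairing, the numbers were not taken as pairs. The causes of these differences were not tested. Depth limits the least abundant of the variable genes: between 5 and 10 CPM counting error alone gave a median SD of 0.12. The alternatives that scale reads by coding length were not run, because no lengths of the build's transcripts were used here.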

Other observations

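Genes in no list held 47.6 ± 0.940% of the control reads, and none of them reached the 25 highest. The first of them, chosen after their values were seen, were ckbb (a brain-type creatine kinase, 0.167%), cirbpb (a cold-inducible RNA-binding protein, 0.162%), nme2b.2 (a nucleoside diphosphate kinase, 0.162%), ybx1 (a messenger RNA-binding protein, 0.159%) and hdlbpa (vigilin, 0.157%).

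A pair of liver genes of glucose synthesis was lowest in replicate 1. The level of pck1, the committing enzyme of glucose synthesis, was 596, 708 and 834 CPM in replicates 1, 2 and 3, and that of g6pca.2, which releases free glucose, was 258, 391 and 451 CPM. Over the 78 liver genes of at least 5 CPM, replicate 1 was the highest pool for 52 and the lowest for 11. Both genes were picked for this order after their values were seen, and whether it goes with the glucocorticoid targets that were also lowest in replicate 1 was not tested.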
